A study of Mus musculus with 15 samples.

Results

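T cells of the mouse intestine were studied as the cells with at least 1 unique molecular identifier (UMI, a tag that counts original RNA molecules) in at least 2 of the 3 genes Cd3d, Cd3e and Cd3g. These genes encode the CD3 chains, which carry the signal of the T cell receptor into the cell, and lie next to each other on chromosome 9 (GRCm38 build: Cd3g from 44969572 to 44980431, Cd3d from 44981769 to 44987052, Cd3e from 44998735 to 45009663). The rule took 537 of 18919 cells, or 2.84%. Of these, 196 cells had UMIs of 2 of the genes and 341 had UMIs of all 3, while 826 cells had UMIs of 1 and were counted among the 18382 other cells. Because the cells were chosen by measured Cd3 UMIs, differences between them and the other cells are given as a description, without a test.

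The study used single-cell RNA sequencing to ask what a high fat diet does to the mouse intestine. Every mouse had Lgr5-eGFP-IRES-CreERT2, an allele that places a green fluorescent protein and an inducible Cre recombinase under the promoter of the stem cell gene Lgr5, and all were 6 months old. The control group was 2 mice on a diet with 10% of kcal from fat (D12450J), and the high fat group was 3 mice on a diet with 60% of kcal from fat (D12492). Each mouse gave a sample of proximal small intestine, of distal small intestine and of colon, so that there were 15 libraries. They were prepared by Seq-Well, in which single cells settle into small wells, in its version with second strand synthesis. The libraries held 324 to 1920 cells, and a cell had 538 to 73331 UMIs. Of 18898 distinct barcodes, 16 occurred in 2 or more libraries, 1 of them in a T cell.

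Most T cells in the intestinal epithelium are intraepithelial lymphocytes, which sit between the epithelial cells, are held there by the integrin CD103 (Itgae with Itgb7) binding E-cadherin on their neighbours, and often carry CD8 and granzymes. They include cells with an alpha-beta receptor and cells with a gamma-delta receptor, and many carry CD8 as a pair of alpha chains instead of the alpha-beta pair of classical cytotoxic T cells. Helper and regulatory T cells, which carry CD4, are more common in the connective tissue beneath the epithelium.

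The label held up against genes the rule did not use, and the leading genes were those of cytotoxic, tissue-resident lymphocytes. Summed over the T cells of each of the 14 libraries with at least 20 of them, Gzma, which encodes the protease granzyme A, was at 3149 ± 1739 CPM (mean ± SD, n = 14) against 21.8 ± 32.5 CPM in the other cells of the same libraries. CPM are UMI counts scaled so that every sum has the same standard total. With 10 CPM added to both means, that is a log2 ratio of 6.63, the largest. Ccl5, a chemokine that draws in other lymphocytes, followed at 6.36, Cd8a at 5.59, Gzmb (granzyme B) at 5.53, Cd7 at 5.42, Itgae at 5.13, the receptor beta chain constant gene Trbc2 at 5.03 and the granule gene Nkg7 at 4.92. The remaining members of the leading 20, besides the 3 Cd3 genes, were Ctsw, Cd160, Lck, Gimap4, Rgs1, Ptprc, Cd96, Thy1 and Ptpn22, with log2 ratios of 4.62 down to 4.21. Each of the 20 was higher in T cells in 14 of 14 libraries. With 1 CPM added instead, Cd3g (7.32) and Cd3e (7.13), which the rule used, ranked above Gzma (7.11), and 15 of the leading 20 were shared. Over all 17185 genes, 738 (4.29%) were at least 2-fold higher in T cells and 53 (0.308%) at least 2-fold lower. With low-epithelial T cells alone, described next, these were 1521 (8.85%) and 2190 (12.7%), and 19 of the leading 20 genes were shared.

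The T cells fell into 2 sets by their share of RNA of epithelial genes. The share of a cell's UMIs that came from 41 epithelial genes (Epcam, Krt8, Vil1 and others) had a median of 0.340% over all T cells and 3.10% over the other cells, but few T cells lay near the value between. A split at 1% of UMIs, chosen after these values were seen, gave 283 T cells below it and 254 at or above it, and 18 T cells (3.35%) lay between 0.5% and 1.5%. The 283 low-epithelial T cells had a median epithelial share of 0.127% and at most 0.812%, and 19 of all T cells had no epithelial UMI. The 254 high-epithelial T cells had a median of 2.91%, close to that of the other cells. The split also separated depth, since the medians were 4592 UMIs in low-epithelial T cells, 15926 UMIs in high-epithelial T cells and 13414.5 UMIs in the other cells.

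**Figure D1:**
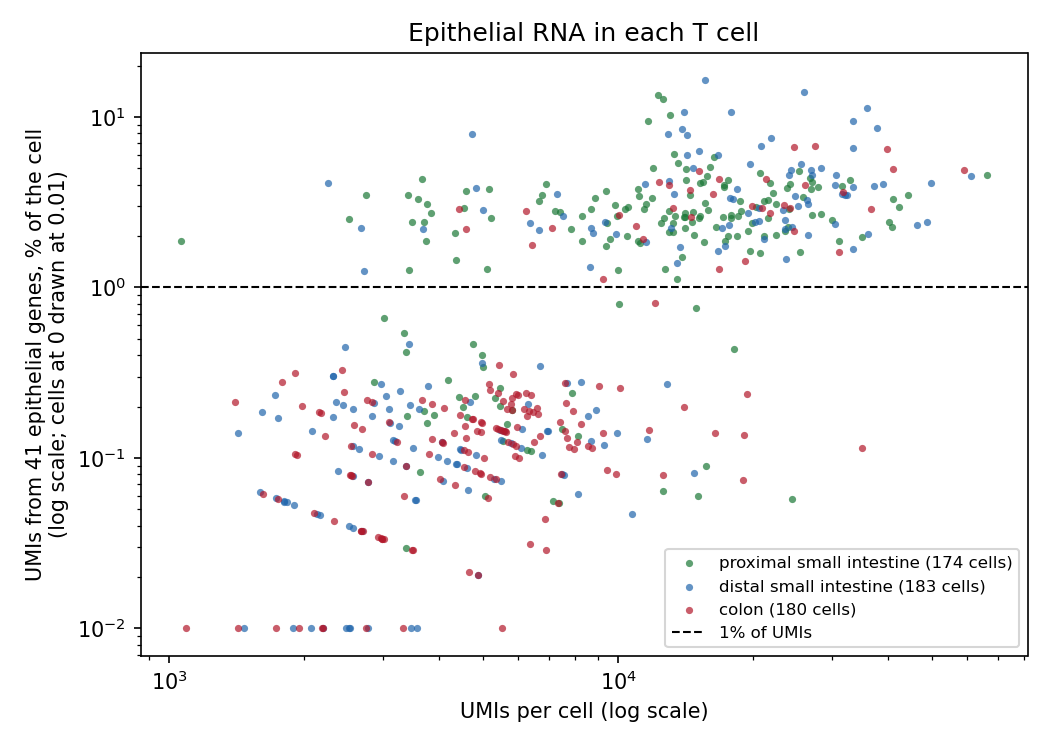
Each point is 1 of the 537 T cells; the x axis gives its total UMIs and the y axis the percent of them from 41 epithelial genes (both log scales, cells at 0 drawn at 0.01), with colour for the organ and a dashed line at 1%. The cells form separate clouds, with 283 cells below the line and 254 at or above it, and 18 cells between 0.5% and 1.5%.

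Cells just outside the rule resembled the other cells in both measures. Cells with UMIs of 1 Cd3 gene had a median epithelial share of 3.09% and a median of 15636.5 UMIs, against 3.11% and 13335 UMIs in cells with none. Cells just inside the rule, with 2 Cd3 genes, had medians of 2.31% and 7690.5 UMIs, and cells with all 3 had 0.216% and 7307 UMIs. The share of cells at 1% epithelial UMIs or more was 96.9%, 93.9%, 64.3% and 37.5% for 0, 1, 2 and 3 Cd3 genes. Scrublet, a program that scores barcodes by their likeness to simulated pairs of cells, called 242 doublets in all. These were 5 of the 254 high-epithelial T cells (1.97%), 0 of the 283 low-epithelial T cells and 237 of the 18382 other cells (1.29%). Whether high-epithelial T cells are T cells caught together with epithelial cells, T cells with free RNA of burst epithelial cells, or both, was not tested.

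The 2 kinds of T cell differed in how much T cell RNA they held, as shares of UMIs. Genes of the receptor complex made up 0.472% of the UMIs of low-epithelial T cells (25.1 UMIs per cell), 0.0689% of those of high-epithelial T cells (12.6 per cell) and 0.000822% of those of other cells (0.124 per cell). Epithelial genes gave 8.60, 682 and 562 UMIs per cell in the same order. Genes of the PPAR and fatty acid oxidation list, which serve fat burning and are abundant in absorptive epithelium, gave 9.90, 101.3 and 85.7 UMIs per cell. Epcam, the epithelial adhesion gene, had at least 1 UMI in 28.6% of low-epithelial T cells, 99.2% of high-epithelial T cells and 97.1% of other cells, and Lgr5 in 0.353%, 23.2% and 24.4%. Cdh1, which encodes E-cadherin, was detected in 57.2% of low-epithelial T cells, at 1.36 UMIs per cell against 15.9 in high-epithelial T cells. Epcam and Cdh1 are among the 41 genes that set the split, so their lower levels in low-epithelial T cells follow from it. Fabp1 and Fabp2 of the PPAR and fatty acid oxidation list are also among the 41. The receptor complex list holds Cd3d, Cd3e and Cd3g, which chose the T cells. Its contrast with the other cells thus follows in part from the rule. Cdh1 and several genes named below were chosen after their values were seen.

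**Figure D2:**
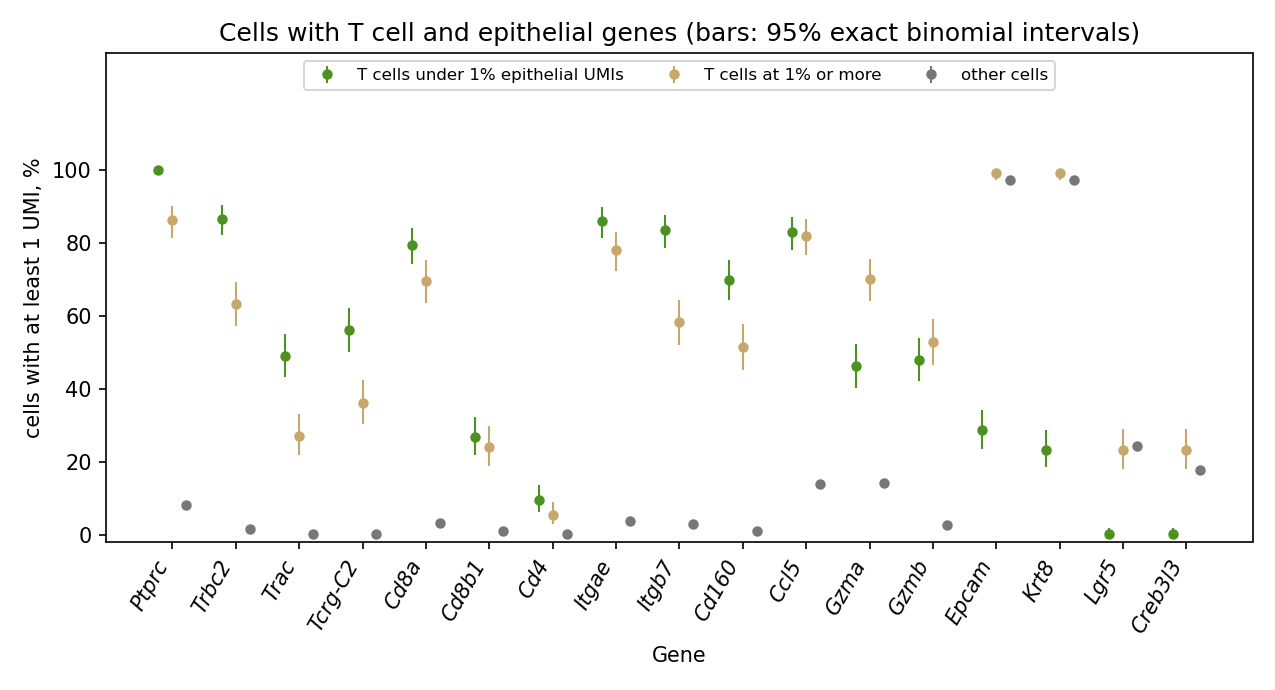
The y axis gives the percent of cells with at least 1 UMI of each gene on the x axis, for the 283 low-epithelial T cells, the 254 high-epithelial T cells and the 18382 other cells, with 95% exact binomial intervals that cover counting error only. The T cell genes are more frequent in both kinds of T cell than in the other cells, while Lgr5 (0.353%, 23.2% and 24.4%) and Epcam (28.6%, 99.2% and 97.1%), which like Krt8 is one of the 41 genes that set the split, are less frequent in low-epithelial T cells than in both other kinds.

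Low-epithelial T cells held the genes of T cell identity at high frequency. Ptprc, the pan-leukocyte gene for CD45, was detected in 100% of the 283 cells, and the kinase gene Lck, which starts T cell receptor signalling, in 89.4%. The receptor constant genes were detected in 49.1% (Trac, the alpha chain), 48.4% (Trbc1) and 86.6% (Trbc2, both beta chain) of the cells. The gamma chain constant genes were detected in 35.0% (Tcrg-C1), 56.2% (Tcrg-C2) and 47.3% (Tcrg-C4). Tcrg-C1 and Tcrg-C4 had no UMI in any cell of 2 colon libraries. In the others they were detected in 39.0% and 52.8% of 254 low-epithelial T cells. Of the 283 cells, 201 (71.0%) held both an alpha or beta and a gamma constant gene, 65 held the former alone, 11 the latter alone and 6 neither. The libraries without Tcrg-C1 and Tcrg-C4 are included, which can raise the counts without a gamma gene. Tcrg-C1 and Tcrg-C2 are near-identical copies, so reads can be split between them. Gamma transcripts also occur in alpha-beta T cells, so these counts do not divide the cells by receptor. The delta constant gene was not analysed here.

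Most low-epithelial T cells held Cd8a, the fewest Cd4, and the pair was not seen in the same cell. Cd8a was detected in 79.5% of low-epithelial T cells (95% exact interval 74.3 to 84.1%), Cd8b1 in 26.9% and Cd4 in 9.54%. Cd8a without Cd8b1 was seen in 156 cells (55.1%), both in 69 (24.4%), Cd4 without Cd8a in 27 (9.54%) and neither in 27. No cell held Cd4 and Cd8a together. With the 259 cells that reach 2000 UMIs thinned to that number, the shares were 74.5% for Cd8a, 22% for Cd8b1 and 10.0% for Cd4. Among other cells, which include the 826 cells with UMIs of 1 Cd3 gene, Cd8a was detected in 3.38% and Cd4 in 0.310%. Cd4 had no UMI in any cell, of any kind, of 4 libraries, where it looks to have been removed before deposit. In the other 11 libraries, 27 of 179 low-epithelial T cells (15.1%, 95% exact interval 10.2 to 21.2%) held it. By organ those were 0 of 35 cells in the proximal small intestine, 10 of 65 in the distal small intestine and 17 of 79 in the colon.

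Genes of tissue residence and killing were widespread. Of 27 measured genes of the intraepithelial residence list, 25 were at least 2-fold higher in CPM in low-epithelial T cells than in other cells. Over all 17185 genes this was 8.85%, by the mean over libraries instead of pooled cells. Together the 27 genes gave 108 UMIs per cell against 3.87. Itgae was detected in 85.9% of low-epithelial T cells, its partner Itgb7 in 83.4%, Cd160, a receptor of intraepithelial lymphocytes, in 70.0% and the chemokine receptor gene Ccr9, which guides T cells to the small intestine, in 46.6%. Ccl5 was detected in 83.0% at 23.8 UMIs per cell. Gzma was detected in 46.3% of the cells but at 33.6 UMIs per cell, the highest mean of these genes, and Gzmb in 48.1% at 7.04 per cell. Nkg7 (84.8%), Fasl (41.3%), which encodes a death ligand, and Prf1 (25.1%), which encodes the pore-forming protein perforin, were also seen, and the interferon gamma gene Ifng was detected in 14.1%. Runx3, a transcription factor of CD8 and resident T cells, was detected in 71.4%, and Ikzf2, which encodes the transcription factor Helios, in 59.0%. Foxp3, the regulator of regulatory T cells, was not detected in 192 such cells of the 9 libraries that hold it. At a median of 4592 UMIs per cell, that does not show that no cell expressed it.

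High-epithelial T cells held the same T cell genes beside the epithelial ones. Cd8a was detected in 69.7% of them, Itgae in 78.0%, Ccl5 in 81.9% and Ptprc in 86.2%. Gzma was detected in 70.1% at 27.7 UMIs per cell, beside 46.3% and 33.6 in low-epithelial T cells, and Gzmb in 52.8% at 5.54, beside 48.1% and 7.04. Gzma was also detected in 14.2% of other cells, at 0.258 UMIs per cell, and Ccl5 in 14.1%. The median depths were 4592, 15926 and 13414.5 UMIs for low-epithelial T cells, high-epithelial T cells and other cells, so no order is read from these shares.

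Markers of other cell types gave a small share of the UMIs of low-epithelial T cells, but for several lists a larger one than in the other cells. Over all 283 cells the B and plasma cell list made up 0.244% against 0.0553% in the other cells, and 7 of its 13 measured genes were at least 2-fold higher. By library the B and plasma cell list made up 0.00596 to 0.126% of UMIs in the libraries with at least 10 such cells, except for 1.75% in the colon of high fat diet mouse 1. The myeloid and mast cell list made up 0.0223 to 0.0692% in those 10 libraries and 0.117% over all 283 cells, against 0.0149% in the other cells, with 5 of 13 genes at least 2-fold higher. The stromal, endothelial and nerve list made up 0.00446% against 0.000446%, and 1 of its 8 genes was at least 2-fold higher. Beside these counts, 8.85% of all 17185 genes were at least 2-fold higher, by the mean over libraries instead of pooled cells. C1qa, C1qb and Cpa3 were at 0 UMIs, but they had no UMI in any cell of 9, 14 and 13 of the 15 libraries. Fcer1g and Tyrobp, which natural killer cells and some intraepithelial T cells share, were detected in 44.9% and 23.7% of low-epithelial T cells, and Eomes, a natural killer and memory T cell factor, in 4.24%.

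The share of T cells varied among mice more than between diets. In the proximal small intestine T cells were 2.73% and 1.67% of cells in control mice 1 and 2, and 3.43%, 1.90% and 1.62% in high fat diet mice 1 to 3. In the distal small intestine they were 2.50% and 2.91% against 3.54%, 4.52% and 1.69%. In the colon they were 1.07% and 8.76% against 7.65%, 7.10% and 1.81%. The diet groups overlapped in each organ. The means were 2.20 ± 0.755% (SD, n = 2) on the control diet against 2.32 ± 0.975% (n = 3) on the high fat diet in the proximal small intestine, with an exact two-sided permutation p of 1.0. They were 2.71 ± 0.292% against 3.25 ± 1.43% in the distal small intestine (exact permutation p = 0.8) and 4.91 ± 5.44% against 5.52 ± 3.22% in the colon (exact permutation p = 1.0). With 2 mice against 3 this test cannot give a p below 0.2. A share of cells depends on how many epithelial cells were captured as well as on T cells.

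By organ, T cells were 174 of 8052 cells in the proximal small intestine (2.16%), 183 of 6495 in the distal small intestine (2.82%) and 180 of 4372 in the colon (4.12%). Within mice, the distal share exceeded the proximal share by 0.764 percentage points (SD 1.18, higher in 4 of 5 mice, exact two-sided sign-flip permutation p = 0.312). The colon exceeded the mean of the small intestine by 2.63 points (SD 3.25, higher in 4 of 5 mice, exact sign-flip permutation p = 0.188). With 5 mice this test cannot give a p below 0.0625, which the low-epithelial T cells reached between distal and proximal (1.35 points, higher in 5 of 5 mice, exact permutation p = 0.0625).

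**Figure D3:**
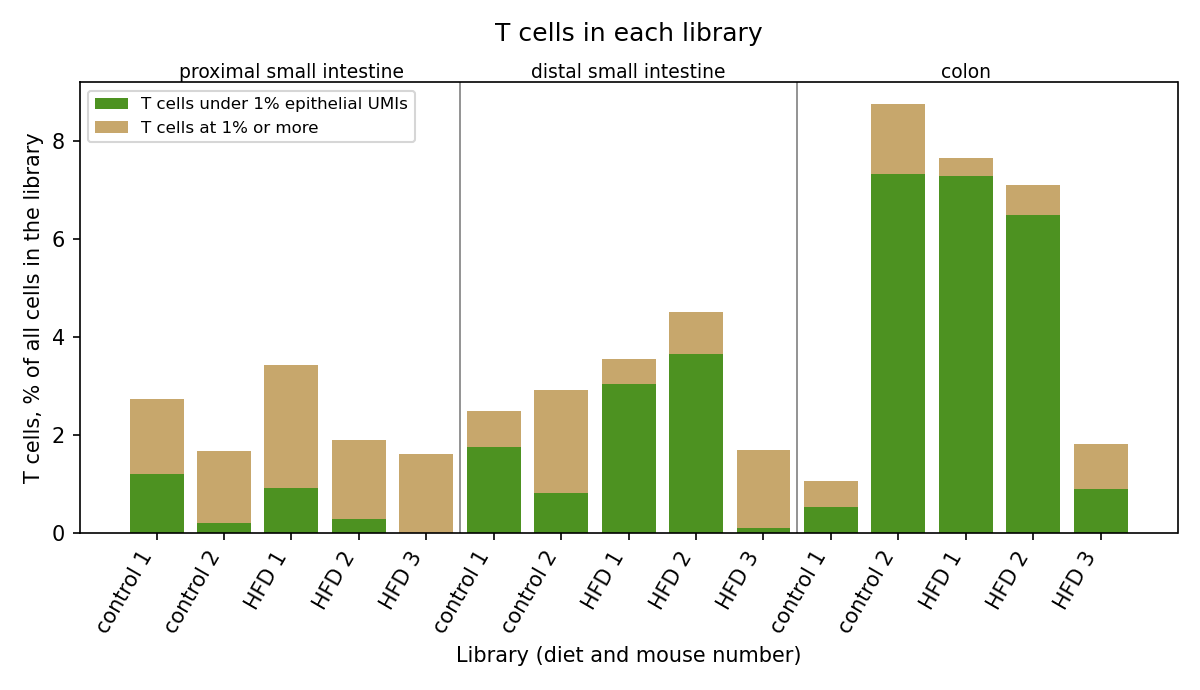
Bars give T cells as a percent of all cells in each of the 15 libraries (x axis: diet and mouse number, by organ), split into T cells under 1% epithelial UMIs and T cells at 1% or more. Control mouse 2 (8.76%) and high fat diet mice 1 (7.65%) and 2 (7.10%) stand above the rest in the colon, and the part at 1% or more takes most of the bars of the proximal small intestine.

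The organs differed in how many of their T cells carried epithelial RNA. In the proximal small intestine 25 of 45 and 28 of 32 T cells of the control mice and 27 of 37, 28 of 33 and 27 of 27 of the high fat diet mice were high-epithelial. In the distal small intestine these were 8 of 27 and 33 of 46 against 5 of 36, 8 of 42 and 30 of 32, and in the colon 8 of 16 and 13 of 79 against 2 of 42, 2 of 23 and 10 of 20. Averaged over mice, the share was 80.2% in the proximal small intestine, 45.6% in the distal small intestine and 26.0% in the colon. The proximal share was higher than the distal in 5 of 5 mice (34.6 points, exact sign-flip permutation p = 0.0625) and higher than that of the colon in 5 of 5 (54.2 points, p = 0.0625 by the same exact test), the smallest p 5 mice allow. The distal share exceeded that of the colon in 4 of 5 mice (19.6 points, exact permutation p = 0.312). Depth differed among these libraries too. By organ, the median was 14379 UMIs in the proximal and 13192 in the distal small intestine, and 9327 in the colon. These fall in the same order as the high-epithelial shares. In the distal small intestine, libraries with medians of 21609 and 16711.5 UMIs had 71.7% and 93.8% high-epithelial T cells. Those with 5569, 9388 and 5431 UMIs had 29.6%, 13.9% and 19.0%. The proximal and distal libraries of control mouse 2 and high fat diet mouse 3 had medians of 15310 to 21609 UMIs per cell and held 0 to 13 low-epithelial T cells. Not every library followed depth. In high fat diet mouse 1 the proximal cells had a median of 4757 UMIs, with 73.0% of the T cells high-epithelial. In the colon, control mouse 1 had a median of 4915 UMIs with 8 of 16 T cells high-epithelial, and control mouse 2 had 17839 UMIs with 16.5%. The part of depth in the share was not tested.

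The epithelial share of T cell UMIs, set against that of the other cells of the same library, did not separate the diets. The ratio averaged 0.764 in control and 0.873 in high fat diet mice in the proximal small intestine (exact permutation p = 0.6) and 0.578 against 0.665 in the distal small intestine (exact permutation p = 0.8). In the colon it was 0.462 in the 1 control library with at least 20 T cells and averaged 0.412 in the 3 high fat diet libraries.

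In the sums over all T cells, genes of fat metabolism, Creb3l3 and Fabp1 among them, were higher on the high fat diet in the proximal small intestine. Creb3l3, a transcription factor of lipid metabolism (chromosome 10, 81084329 to 81098872), was at 10.5 and 4.45 CPM in the control mice and at 229, 246 and 245 CPM in the high fat diet mice. Fabp1, a fatty acid binding protein of enterocytes (chromosome 6, 71199879 to 71205034), was at 31.6 and 34.1 CPM against 1953, 1072 and 1143 CPM. The groups did not overlap for either gene. By rank alone, 2 libraries against 3 cannot give an exact permutation p below 0.2, and the share of all genes without overlap is not given here. The control levels of Creb3l3 rest on few UMIs, in sums of 474367 and 674877 UMIs. The log2 fold changes in edgeR's quasi-likelihood test were 5.07 for Creb3l3 (SE 0.61, adjusted p = 0.0080) and 5.46 for Fabp1 (SE 0.70, adjusted p = 0.0080). Of 9634 genes tested 3 were called (0.0311%), all higher, and 241 genes had an unadjusted p under 0.05. Leaving out control mouse 2 ended all 3 calls, as did leaving out high fat diet mouse 2. The edgeR adjusted p was then 0.364 and 0.196 for Creb3l3 and 0.601 and 0.0688 for Fabp1. That of Fabp1 was also lost without control mouse 1 (adjusted p = 0.194), and that of Creb3l3 with cells thinned to 2000 UMIs (adjusted p = 0.930). In all 14 alternatives the log2 fold changes stayed between 4.54 and 7.14 for Creb3l3 and between 4.84 and 5.63 for Fabp1. In data simulated for this proximal comparison, the test recovered 48% of 100 genes changed by 2 on the log2 scale and 2% of 100 changed by 1. It made 6 false calls among the 9634 genes. The changed genes were drawn only from those with a higher mean CPM, so recovery of low-count genes was not measured.

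Low-epithelial T cells held few UMIs of these genes. In the 2 proximal libraries with at least 10 such cells, control mouse 1 and high fat diet mouse 1, Creb3l3 was at 8.95 and 0 CPM and Fabp1 at 0 and 179 CPM. Creb3l3 had no UMI in any cell of 4 libraries, and in the others 1 of 195 low-epithelial T cells held it. Fabp1 had none in any cell of 6 libraries, 5 of them from the colon, and in the others 8 of 119 low-epithelial T cells held it, all among the 39 (20.5%) of the proximal small intestine. Fabp1 is also one of the 41 epithelial genes behind the split, which by itself limits its level in these cells. The other cells of the same libraries differed between diets in the same direction. Creb3l3 was at 7.99 and 17.2 CPM in the other cells of the control mice and at 160, 276 and 216 CPM in those of the high fat diet mice. Fabp1 was at 32.8 and 114 CPM against 1521, 1383 and 1446 CPM in those cells. When the diet difference in T cells was tested against that in the other cells of the same libraries, it was 0.96 (SE 0.63) larger on the log2 scale for Creb3l3 and 0.86 (SE 0.47) for Fabp1, each with an adjusted p of 1.0 in edgeR. No gene passed that test of 12815 (percent called 0), with 275 at an unadjusted p under 0.05, and DESeq2 gave 0 as well.

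**Figure D4:**
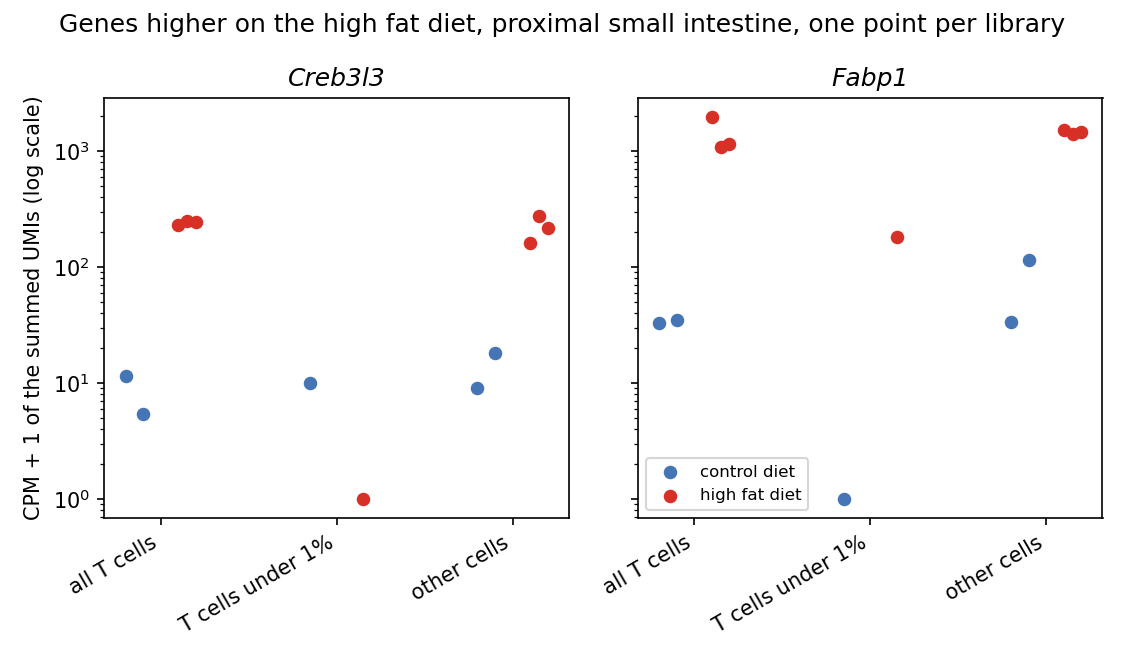
Points give the level of Creb3l3 and Fabp1 in each library of the proximal small intestine, as CPM + 1 of summed UMIs on a log axis, for the kinds of cell named on the x axis and coloured by diet. Both the T cells and the other cells of the high fat diet mice lie above those of the control mice. Among libraries with at least 10 low-epithelial T cells, Creb3l3 is at 8.95 CPM in control mouse 1 and 0 CPM in high fat diet mouse 1. Fabp1 in these cells is higher in that high fat diet mouse than in that control mouse.

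No gene of the T cell lists was called between diets in the proximal small intestine. None of the 10 tested genes of the receptor complex, 22 of T cell signalling, 11 of the cytotoxic granule or 26 of intraepithelial residence was called, with median log2 fold changes of -0.24, -0.45, -0.41 and -0.59 beside 0.00 over all genes tested. Gzma changed by -0.55 (SE 0.66), Cd8a by -0.55 (SE 0.65), Itgae by -0.73 (SE 0.63) and Ccl5 by 0.12 (SE 0.63), each with an adjusted p of 1.0 in edgeR. The interferon response list had a median of -0.68, with 1 of 15 tested genes above 0 and none called. Of 44 tested genes of the PPAR and fatty acid oxidation list, 42 had a positive fold change, with a median of 1.14, and 3 were called. Those 3 were the only calls among all 9634 genes tested (0.0311%), over which the median was 0.00. The list was chosen with earlier results of these data known, so its count is a description. The cytosolic malic enzyme gene Me1 (8.18, SE 1.37, adjusted p = 0.0786) and the peroxisomal gene Hsdl2 (2.78, SE 0.52, adjusted p = 0.149) had the smallest p of those not called. Acot1, an acyl-CoA thioesterase (3.04, SE 0.62, adjusted p = 0.232), and the desaturase gene Scd2 (-2.22, SE 0.60, adjusted p = 0.864) were not called either.

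In the distal small intestine no gene was called between diets (percent called 0, with 9634 tested; 142 had an unadjusted p below 0.05, and DESeq2 also called 0). The cytotoxic granule list had a median log2 fold change of 0.37, the receptor complex list of 0.36 and the interferon response list of 0.63 (12 of 15 tested genes above 0), beside 0.04 over all genes. The diet difference was not called as different between the proximal and the distal small intestine for any gene (percent called 0; 141 at an unadjusted p under 0.05; 0 by DESeq2). In the colon, control mouse 1 had 16 T cells, fewer than the 20 required, so the diets were compared there only with the requirement lowered to 10 cells, when 0 of 8209 genes were called and 190 had an unadjusted p under 0.05.

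Low-epithelial T cells could be compared between diets in the distal small intestine, with 2 libraries each. No gene of 3969 was called (percent called 0; 139 at an unadjusted p under 0.05). The smallest p was that of the proliferation gene Mki67, which was at 443 and 586 CPM in control and 42.2 and 50.9 CPM in high fat diet mice (log2 fold change -3.51, SE 0.67, adjusted p = 0.165 in edgeR). Top2a, an enzyme of DNA replication, followed (-5.01, SE 1.13, adjusted p = 0.518). All 12 tested genes of the cell cycle list had a negative fold change, with a median of -2.47 beside -0.01 over all genes tested. Against the other cells of the same libraries, 3 of 12761 genes were called (0.0235%): Top2a (-4.93) and Mki67 (-3.53) were lower (0.0157%) and the heat shock gene Hspa1a higher (0.00784%). Mki67 was detected in 13 of 99 low-epithelial T cells of the distal small intestine (13.1%), so these values rest on few cells.

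Between organs, the sums over all T cells differed in epithelial genes and in genes of other lists. Between the distal and the proximal small intestine 20 of 9634 genes were called (0.208%), 2 higher (0.0208%) and 18 lower (0.187%) in the distal part. Those higher were Fabp6, the ileal bile acid binding protein, and Naaladl1, an ileal peptidase. Fabp6 was at 0, 2.96, 7.27, 0 and 0 CPM in the 5 proximal libraries and at 134, 1225, 4.18, 6.71 and 240 CPM in the 5 distal ones. Its values overlapped between the organs, and leaving out control mouse 1 or 2 or high fat diet mouse 2 or 3 ended the call (adjusted p from 0.124 to 0.316). The call of Naaladl1 was lost without the same mice (adjusted p from 0.101 to 0.459). Those lower included Onecut2, a transcription factor of the duodenum and jejunum, at 124 to 234 CPM in the proximal and 0 to 4.18 CPM in the distal libraries (-5.73, SE 0.46, adjusted p = 0.00012). Fabp1, the retinol handling gene Rbp2, the gastrokine Gkn3 and Creb3l3 were also lower. Of 40 tested genes of the epithelial list 0 were called higher and 4 lower, and of 44 of the PPAR and fatty acid oxidation list, which also holds Fabp1, 0 higher and 4 lower. With the mouse as a block, which the shared animals allow, 281 genes were called (2.92%), 186 higher (1.93%) and 95 lower (0.986%), among them all 20. T cell genes were among those higher in the distal part: 15 of 22 genes of T cell signalling and 5 of 10 of the receptor complex were higher and none lower, beside a high-epithelial share of T cells of 45.6% in the distal and 80.2% in the proximal small intestine.

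Between the colon and the small intestine 263 genes were called (2.73%), 122 higher (1.27%) and 141 lower (1.46%) in the colon. Of the 40 tested epithelial list genes 2 were called higher and 9 lower. Olfm4, a crypt gene of the small intestine, was at 671 to 2160 CPM in the 10 small intestine libraries. It was listed at 0 in every cell of the colon libraries, where it looks to have been removed before deposit. Those zeros set no limit on its level. The urea cycle enzyme Cps1 was lower (-7.60, SE 0.67, adjusted p = 4.0e-05), and the oxidase gene Nox1 was higher (4.52, SE 0.48, adjusted p = 0.00017). Of the T cell lists, 7 genes were called, all higher in the colon, beside 1.27% called higher over all 9634 genes tested. They were Ikzf2 (2.14, adjusted p = 0.0045), S1pr1, the receptor by which T cells leave tissue (5.03, adjusted p = 0.0080), Trac (1.95, adjusted p = 0.015), Ltb (2.04, adjusted p = 0.0266), Trbc1 (1.68, adjusted p = 0.0286), Cd226 (1.59, adjusted p = 0.0377) and Ctla4 (3.98, adjusted p = 0.0498). Trac and Trbc1 belong to the receptor complex list, with 10 genes tested, and Ltb to that of T cell signalling, with 22. S1pr1 had no UMI in any cell of 4 libraries, 3 from the proximal and 1 from the distal small intestine and none from the colon. The zeros thus lie on the side where it was lower. Ctla4 had none in any cell of 8 libraries, and the T cells of all 5 proximal libraries held none of it. Without high fat diet mouse 2 the calls of Trac, Ltb, Trbc1, Cd226 and Ctla4 were lost (edgeR adjusted p from 0.0639 to 0.139), and without control mouse 2 those of Trbc1, Cd226 and Ctla4 (0.122 to 0.172). Control mouse 1 (Trbc1, Cd226, Ctla4), high fat diet mouse 1 (Cd226) and high fat diet mouse 3 (Ctla4) also decided calls, with adjusted p from 0.0503 to 0.0975 without them. Ikzf2 kept its call without each mouse in turn. With the mouse as a block 1208 genes were called (12.5%), 720 higher (7.47%) and 488 lower (5.07%), including 19 of 22 signalling genes and 8 of 10 receptor complex genes higher in the colon. As high-epithelial T cells were 26.0% of T cells in the colon and more in the small intestine, the share of T cell RNA in these sums moved with the organ, and its part in the calls was not tested.

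Low-epithelial T cells showed few differences by organ. Their fit used 10 libraries: control mouse 1 and high fat diet mouse 1 in the proximal, control mice 1 and 2 and high fat diet mice 1 and 2 in the distal small intestine, and control mouse 2 and high fat diet mice 1 to 3 in the colon. The receptor complex list had a median difference of 0.09 between colon and small intestine and T cell signalling of -0.03, beside 0.07 over the 3969 genes tested. The genes of the T cell lists called in the sums over all T cells kept a positive difference here where tested. None of them passed the edgeR test, and Ctla4 did not pass the filter on low counts. S1pr1 differed by 3.68 (SE 1.30, adjusted p = 0.465), Trac by 1.11 (adjusted p = 0.326), Ltb by 1.02 (adjusted p = 0.772), Trbc1 by 0.78 (adjusted p = 0.620) and Cd226 by 0.52 (adjusted p = 0.770). With these errors, the missed threshold does not show that the organs were alike. Ikzf2 differed by 1.61 (adjusted p = 0.0592). It was at 331 and 139 CPM in the proximal, 323, 665, 267 and 521 CPM in the distal and 1123, 427, 1038 and 811 CPM in the colon libraries, with 3 of 4 colon values above all of the small intestine.

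In these cells 5 genes were called between colon and small intestine (0.126%), 1 higher (0.0252%) and 4 lower (0.101%). The higher gene was Mki67 (4.0, SE 0.58, adjusted p = 0.0044), at 483 and 0 CPM in the proximal, 443, 586, 42.2 and 50.9 CPM in the distal and 789, 356, 1836 and 846 CPM in the colon libraries. Its values overlapped between the organs, and without high fat diet mouse 1, which leaves a comparison of control mice alone, the difference was 0.68 with an edgeR adjusted p of 1.0. Lgals2 (-6.91), Cps1 (-5.96) and Olfm4 (-6.72), which epithelium of the small intestine makes, were lower. Each call was lost without control mouse 1, control mouse 2 or high fat diet mouse 1. Olfm4 was listed at 0 in every cell of the colon libraries, where it looks to have been removed before deposit. Those zeros set no limit, so its call does not show a lower level in the colon. Cd5, a brake on T cell receptor signalling, was called lower (-3.68, SE 0.64, adjusted p = 0.0124), but it was at 0 in every cell of the colon library of control mouse 2, T cells and other cells alike. The other colon libraries gave 248, 208 and 301 CPM, inside the 89.0 to 352 CPM of the small intestine, and the difference without control mouse 2 was 0.24 (adjusted p = 0.902).

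Ccr9 was lower in the colon in each library. Its level was 304 and 497 CPM in the proximal and 336, 719, 316 and 763 CPM in the distal libraries, against 198, 76.4, 0 and 92.7 CPM in the colon, with no overlap. The difference was -1.96 on the log2 scale (SE 0.43, edgeR adjusted p = 0.0716). It was -1.0 with an adjusted p of 1.0 without high fat diet mouse 1, and between -2.92 and -1.58 without each other mouse, when it passed the threshold without control mouse 1, high fat diet mouse 2 or high fat diet mouse 3 (adjusted p from 0.0163 to 0.0455).

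With the mouse as a block, 25 genes were called between colon and small intestine in low-epithelial T cells (0.63%), 12 higher (0.302%) and 13 lower (0.328%) in the colon. This fit of 10 libraries had 1 residual degree of freedom, so its p-values rest almost wholly on the spread borrowed across genes. Ccr9 (-2.44, adjusted p = 1.12e-10), Gzmb (-1.18, adjusted p = 0.0069), Itga1, an integrin that binds collagen (-1.13, adjusted p = 0.0096), and the gamma variable gene Trgv2 (-2.04, adjusted p = 5.36e-05) were among those lower. Ikzf2 (1.08, adjusted p = 0.0359), Satb1, a chromatin organiser (3.13, adjusted p = 0.0069), Vim (1.30, adjusted p = 0.0047) and Hif1a (1.95, adjusted p = 0.0047) were among those higher. The Gzmb levels overlapped, at 591 to 2693 CPM in the 6 small intestine libraries and 623 to 1219 CPM in the colon.

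Itgae and Gzma, genes of residence and killing, passed neither fit between colon and small intestine. Itgae was at 2022 and 1531 CPM in the proximal, 1344, 2138, 1863 and 1551 CPM in the distal and 1194, 878, 910.1 and 1112 CPM in the colon libraries. Its colon values lay below all 6 of the small intestine (-0.66, adjusted p = 0.55, and 0.0990 with the block). Gzma was at 12335 and 14591 CPM in the proximal, 6182, 8500, 9934 and 4044 CPM in the distal and 5700, 3170, 4151 and 4831 CPM in the colon libraries, so that the proximal values were highest and the distal and colon values overlapped. Cd8b1 was detected in 9 of 20 and 5 of 10 low-epithelial T cells in those proximal libraries, 21.1 to 38.5% in the distal ones, and 7.58% of 66 cells in the colon of control mouse 2 against 40.0%, 28.6% and 40.0% in the colon of high fat diet mice 1 to 3. The colon values of the high fat diet mice overlapped with those of the small intestine, and only that of control mouse 2 lay below them.

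**Figure D5:**
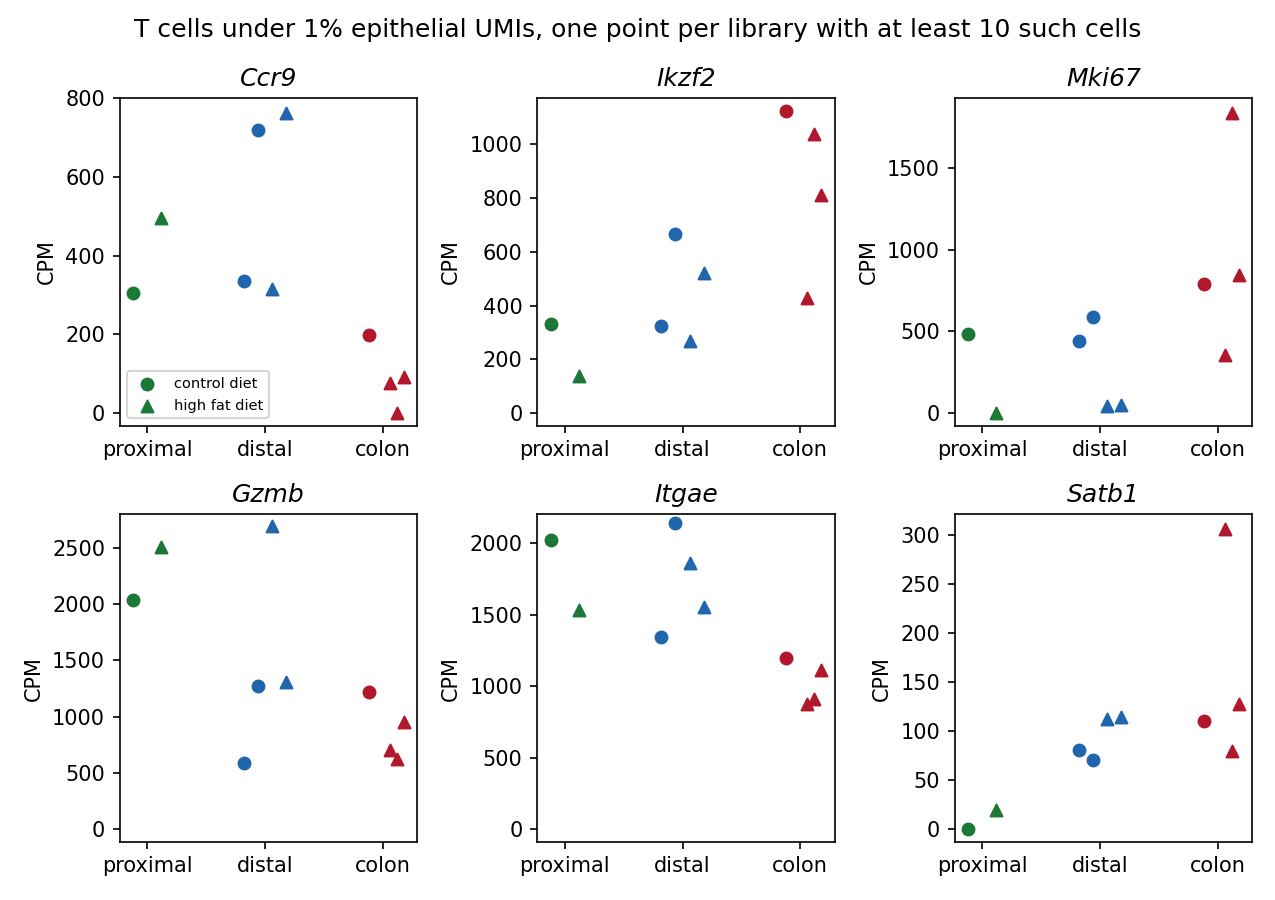
Each point is the level in CPM of the named gene in the summed low-epithelial T cells of 1 library with at least 10 such cells, by organ on the x axis, with marker shape for the diet. Ccr9 and Itgae are lower in all 4 colon libraries than in all 6 of the small intestine, while Mki67 overlaps between the organs.

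Between the distal and the proximal small intestine, no gene was called in low-epithelial T cells (percent called 0; 187 at an unadjusted p under 0.05), and 5 were called with the mouse as a block (0.126%), again with 1 residual degree of freedom. One was Cd4, which had 0 UMIs in the proximal cells and was at 376, 0, 183 and 0 CPM in the distal libraries, so that its fitted fold change depends on the prior count. The others were Ighm, higher in the distal part like Cd4 (0.0504%), and Dmbt1, Cd200r2 and Klra5, lower (0.0756%). The 2 proximal libraries held 20 and 10 low-epithelial T cells, which limits what this comparison could show.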

How the data were processed

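Raw UMI counts per gene and cell were deposited by the authors in 1 table of 17185 genes and 18919 cells, with a table of each cell's organ and mouse. Reads were placed on build mm10, per the submitters' processing notes; the aligner, counter and annotation are not given in the sources used here. Cells had been filtered for quality before deposit, and genes with no UMI in a whole library look to have been removed there, so a 0 in such a library sets no limit. The cell table's control mouse 3 was matched to control mouse 2, the only label remaining. The members and gene lists were chosen with earlier results of these data known.

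Counts of T cells were summed per library with at least 20 T cells (14 libraries, 80429 to 982818 UMIs) and tested with edgeR 4.0.16 (R 4.3.3) by quasi-likelihood, with TMM scaling, filterByExpr and organ-by-diet groups. P-values were adjusted by Benjamini-Hochberg over all genes tested, and genes with an adjusted p under 0.05 were called. Low-epithelial T cells were summed where a library held at least 10 (10 libraries, 50304 to 478973 UMIs), a fit added after the data were seen. A left-out mouse that emptied a group left the organ contrast to the other diet. DESeq2 1.42.0 was an alternative. Doublets were called per library with Scrublet (scanpy 1.11.5) and kept, except in an alternative without them. Shares were compared by exact permutation over mice (scipy 1.17.1), and intervals are exact binomial at 95% and cover counting error only. Named genes were the 10 smallest p among called genes in each direction, the 5 smallest p where fewer than 5 were called, the top 3 of each list by level, and a fixed set of T cell and diet genes. Some genes that this rule names are not reported here. The fits were tested on simulated data. Organs came from the same mice, and 9 of 11 same-mouse pairs of T cell sums deviated together (r over 0.1, range 0.0641 to 0.467), so blocked counts stand beside the organ results.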

Additional observations from a re-analysis of the deposited data

How the results depend on the processing

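Of the alternatives tried for the comparisons, 136 were labelled the same, 48 moved and 15 reversed. A share or ratio that kept its sign was labelled the same, however far its value went. The diet difference in colon T cell share was 0.607 percentage points with all mice and 4.45 without control mouse 2, labelled the same. Counts of genes were labelled by the size of the count, without a check of direction. The diet difference in T cell share (percentage points, high fat minus control) was 0.115 in the proximal small intestine but -0.814 with all 3 Cd3 genes required, -0.307 for low-epithelial T cells and -0.442 to 0.648 without each mouse in turn; in the distal small intestine it was -0.0884 to 1.32 without each mouse, and in the colon -0.563 with all 3 Cd3 genes and -3.24 to 4.45 without each mouse. The ratio of epithelial shares differed by -0.384 with all 3 genes, -0.0105 for low-epithelial T cells and -0.165 to 0.339 without each mouse in the distal small intestine, and by 0.00294 and -0.224 to 0.0760 in the colon.

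Genes called between diets in the proximal small intestine, 3 as reported, were 11 with DESeq2, 62 without a filter on low counts, 16 with the mouse number as a replicate block, 16 with the deeper mice as a factor, 7 with that organ alone and 0 to 9 without each mouse (0 where control mouse 2, or high fat diet mouse 2, was left out). The mouse number pairs nothing across diets by the labels, and 2 of 4 such pairs had r over 0.1. Distal counts were 12 without the filter, 2 with the block, 2 with the depth factor and 0 to 1 without each mouse, and the difference between organs gave 24 without the filter. Distal minus proximal gave 53 with DESeq2, 282 without the filter, 38 with all 3 genes, 2 thinned, 281 with the animal as a replicate block, 0 for low-epithelial T cells and 3 to 26 without each mouse. Colon minus small intestine gave 820, 759, 16, 1208 and 5 for the same settings other than DESeq2, and 77 to 236 without each mouse (77 where control mouse 2 and 110 where high fat diet mouse 2 was left out).

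The test of T cells against other cells between diets gave 37 without the filter, 12 thinned and 0 to 29 without each mouse in the proximal part, and 6, 1 and 0 to 20 in the distal part, with 3 for low-epithelial T cells. Low-epithelial organ counts were 5 with the block and 0 to 1 without each mouse (distal minus proximal), and 25 and 1 to 18 (colon minus small intestine). At least 2-fold higher in T cells were 1346 genes with 1 CPM added and 1521 for low-epithelial T cells. Thinned to 2000 UMIs, shares of low-epithelial T cells fell to 28.2% for Trac, 33.2% for Trbc1, 74.9% for Trbc2, 20.5% for Tcrg-C1, 36.3% for Tcrg-C2, 24.3% for Tcrg-C4 and 79.5% for Itgae. Ltb reversed to -1.04 between colon and small intestine in low-epithelial T cells with the block, and Cd5 to 0.239 and 0.244 without control mouse 1 or 2 (range without each mouse -7.71 to 0.244). The cause was not tested for these changes.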
